A study of Homo sapiens with 5 samples.

Results

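Dense clusters are stretches of the genome on which many sites bound by TEAD4 lay close together in LX-2 cells. They were found from the deposited TEAD4 peak list in 3 steps. Peaks sharing at least 1 bp were merged, the summit of the peak with the highest signal value was kept for each merged region, and summits at most 12.5 kb apart on a chromosome were joined into chains. A chain of 5 or more merged regions was called a cluster. The 21113 peaks gave 19426 merged regions in 14506 chains, and 138 of these chains (0.951%) were clusters. They held 779 merged regions, which is 4.01% of all regions, and 860 of the peaks. The members were chosen by the measured positions of the peaks, so the number of regions, the span and the spacing are descriptions and were not tested. The signal value comes from the same measurement and is also given as a description.

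LX-2 cells are an established line of human hepatic stellate cells (HSCs) and served in the study as a model of myofibroblastic HSCs, the cells that lay down scar in the liver. All samples were LX-2 cells in medium with 5% serum that had received DMSO, the solvent of an inhibitor used elsewhere in the study. Chromatin of 3 replicates was precipitated with an antibody against TEAD4, and 2 input samples were sequenced, 1 for replicates 1 and 2 and 1 for replicate 3. The authors combined replicates 1 and 3 into the list used here and left out replicate 2, so no value below has a spread between replicates, the sequencing depth is unknown, and TEAD4 binding was not measured under a second condition.

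TEAD4 is one of the TEAD transcription factors, which bind DNA but need a partner to activate genes. Their best known partners are YAP and TAZ, the effectors of the Hippo pathway. When the Hippo kinases are active, YAP is phosphorylated and kept out of the nucleus. In stretched or spread cells YAP enters the nucleus and, with TEAD factors and often with AP-1 factors bound nearby, switches on genes for the cytoskeleton, adhesion, matrix and growth. Most TEAD sites in the genome lie at enhancers far from promoters. The joining distance of 12.5 kb is one that is often used to stitch neighbouring enhancers into super-enhancers, but no histone mark entered the rule, so the stretches are called clusters here and nothing more.

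The sequences around the strongest summits of some clusters are given as examples, chosen by the summed signal of the cluster. Member regions of high signal in other clusters are not shown. They are shown for the 9 clusters with the highest summed signal, and for every region with the TEAD motif in the cluster with the most regions, in which the strongest region is also shown. Sequences are from hg38, plus strand, 5′ to 3′, and reach 50 bp to either side of the summit. The windows of MYL12A and DAB2 overlap an exon and only the motif with its flanks is given. The window of SUSD1, the cluster with the highest summed signal, also overlaps an exon, held no copy of the motif and is not printed. Capitals mark the 6 bases CATTCC on either strand, and 1 further base where the full TEAD motif was present. The full motif is ACATTCC. A copy on the minus strand reads GGAATGT.
MYL12A site, chr18:3247489-3247517: cgccgtgccctGGAATGTgcggccaggca
DAB2 site, chr5:39424975-39425003: aggactccccaGGAATGTgccaggatgtt
PRKCH cluster, region at 13.4 kb, chr14:61537974-61538074: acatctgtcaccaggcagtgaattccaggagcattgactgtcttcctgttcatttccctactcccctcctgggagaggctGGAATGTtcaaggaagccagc
PRKCH cluster, region at 37.4 kb, chr14:61561940-61562040: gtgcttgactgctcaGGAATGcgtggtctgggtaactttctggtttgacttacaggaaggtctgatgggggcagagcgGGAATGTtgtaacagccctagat
PRKCH cluster, strongest region, chr14:61564806-61564906: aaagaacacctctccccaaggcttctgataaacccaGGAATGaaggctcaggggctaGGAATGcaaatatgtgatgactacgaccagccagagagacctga
cluster near AMOTL2, chr3:134327045-134327145: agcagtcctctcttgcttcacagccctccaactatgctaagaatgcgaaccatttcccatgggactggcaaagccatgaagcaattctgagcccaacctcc
SDC4 cluster, chr20:45337900-45338000: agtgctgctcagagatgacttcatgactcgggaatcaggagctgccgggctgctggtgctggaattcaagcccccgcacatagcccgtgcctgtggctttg
ADAMTS12 cluster, chr5:33834455-33834555: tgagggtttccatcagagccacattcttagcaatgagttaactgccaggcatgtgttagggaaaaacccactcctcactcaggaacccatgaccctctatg
AJUBA cluster, chr14:22980820-22980920: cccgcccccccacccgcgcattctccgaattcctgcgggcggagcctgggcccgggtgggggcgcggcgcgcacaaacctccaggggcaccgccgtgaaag
ADAMTS16 cluster, chr5:5340453-5340553: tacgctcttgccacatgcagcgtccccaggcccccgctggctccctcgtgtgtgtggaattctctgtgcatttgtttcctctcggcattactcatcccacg
In the strongest region of the MYL12A and DAB2 clusters the full motif was centred within 12 bp of the summit. The strongest region of the PRKCH cluster held the 6 bases CATTCC at 2 places but not the full motif, and the other 6 windows held neither form. None of the windows held the AP-1 motif (TGACTCA or TGAGTCA). In none of the 138 clusters was a stretch of 21 bases shared between non-overlapping windows around its summits (100 bp to either side). Only exact matches were counted, so copies that had diverged would not be seen.

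The number of chains fell steeply with size. There were 11175 isolated regions, 2321 chains of 2, 658 of 3 and 214 of 4. Just inside the rule were 85 chains of 5, and beyond them 36 chains of 6, 9 of 7, 1 of 8, 5 of 9, 1 of 10 and 1 of 12. Chains of 4, just outside the rule, had a median summed signal of 400, against 501 for chains of 5.

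The clusters spanned from 5.82 to 64.7 kb, with a median of 22.4 kb. Summits within a cluster were a median of 4486 bp apart over 641 gaps. The gaps reached from 199 to 12499 bp, with 61 under 1 kb and 80 over 10 kb. The nearest summit outside a cluster lay at least 12531 bp away, and in 59 of the 138 clusters it lay within 25 kb. Spacing thus ran up to the joining distance itself, and many clusters had a further region close to their edge.

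**Figure D1:**
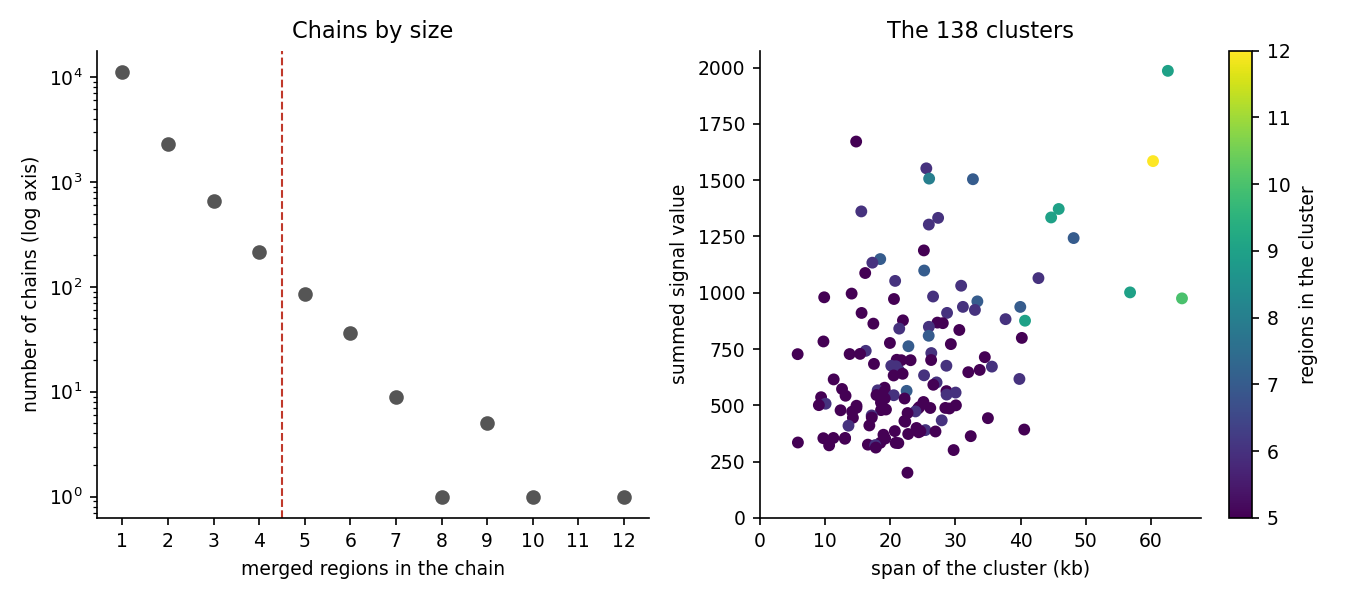
Left, number of chains (log axis) by the number of merged regions in them, with a dashed line where the rule begins. Right, span in kb and summed signal value of each of the 138 clusters, 1 point per cluster, coloured by its number of regions. Most clusters had 5 or 6 regions, and only 2 had 10 or more.

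Signal was unevenly shared within clusters. Summed signal ran from 201 to 1986 with a median of 616, and 21 clusters exceeded 1000. The strongest region held a median of 35.9% of the sum of its cluster (20.2% to 66.4%) and had a median of 1.52 times the signal of the next. In 49 clusters it had more than 2 times that signal. By rank within the cluster, median signal went from 247 for the strongest region to 130, 94.6, 68.6 and 47.0 for the fifth. A typical cluster thus had 1 or 2 strong regions and several weak ones. Medians must fall with rank, and this unevenness was not compared with that of regions outside clusters. The strongest region was the first or last of its cluster in 36 of 138 (26.1%), while first and last places made up a mean of 36.4% of a cluster. Single member regions had a median signal of 83.5, against 72.0 outside clusters, and medians of 69.2, 75.3, 77.0 and 79.2 in chains of 1, 2, 3 and 4.

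The cluster with the highest summed signal, 1986, lay over the start of SUSD1, a gene for a sushi domain protein, at chr9:112012175-112074751. Its 9 regions had signals of 43.6, 62.2, 279, 506, 594, 316, 35.5, 36.5 and 113 in the order of the genome. The 4 strongest regions stood next to each other in the middle, and the weak ones lay to either side. Another cluster of 5 regions, with a summed signal of 385, lay 46.3 kb away, nearer to UGCG, the enzyme that makes glucosylceramide.

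MYL12A and MYL12B, neighbouring genes for regulatory light chains of non-muscle myosin, shared the cluster with the highest mean signal per region, 334, at chr18:3247281-3262066. Its 5 regions had signals of 671, 49.7, 201, 117 and 633. The strong regions stood at the ends, 14.3 kb apart, with 1 at a TSS of each gene. All 5 lay within 2.5 kb of a transcription start site (TSS), which was so in only 5 of the 138 clusters.

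The cluster with the most regions, 12 over 60.3 kb at chr14:61524380-61584681, began in PRKCH, a protein kinase C gene, and ran past its end. The first 4 regions lay in PRKCH. The other 8, the strongest among them, lay only in ENSG00000258989, a protein-coding readthrough gene model, and the cluster is called by PRKCH for short. Signals were 48.1, 91.0, 121, 37.3, 233, 71.3, 311, 63.7, 321, 59.0, 158 and 70.7. From the region of 121 onward, strong and weak regions alternated. The strongest held only 20.2% of the summed signal of 1585, the lowest share of any cluster. A separate cluster of 5 regions with a summed signal of 445 lay 47.2 kb before it in PRKCH.

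The strongest single member region, with a signal of 765, was in the cluster of 6 near AMOTL2 at chr3:134308495-134334037. AMOTL2 encodes an angiomotin that binds YAP and is itself a YAP target. Its TSS lay 32804 bp from the cluster, whose other signals were 128, 349, 128, 130 and 53.1. AJUBA, whose LIM protein inhibits the Hippo kinase LATS, had 6 regions at chr14:22967396-22982970 with signals of 34.3, 175, 47.3, 399, 557 and 149, 5 of them within 2.5 kb of a TSS. SDC4, a syndecan of focal adhesions, shared with SYS1 a cluster of 8 regions at chr20:45337680-45363655, in which 1 region of 640 stood far above the others (41.1 to 243).

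DAB2, an endocytic adaptor, had 7 regions at chr5:39394894-39427583 with signals of 72.4, 116, 279, 295, 69.0, 441 and 231, and 3 of the 7 held the TEAD motif. A second cluster of 6, with a summed signal of 1303 and 1 region of 659, lay 70.6 kb away. Both clusters were thus strong, and together they held 13 regions.

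Proteases of the matrix followed. ADAMTS12, a metalloprotease, held 9 regions over 45.8 kb with signals from 39.9 to 394 and the TEAD motif in none of them. ADAMTS16, of the same family, had 9 regions at its end and beyond with signals from 41.2 to 295, of which 2 held the TEAD motif and 4 the AP-1 motif.

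Further clusters ranked high by size or mean signal alone. COL5A2, a chain of type V collagen, held 7 regions over 48.1 kb with signals of 200, 357, 41.0, 57.7, 241, 216 and 130. CACNA1C, a calcium channel gene, held 5 regions with signals of 295, 85.4, 316, 266 and 226. PDGFC, a platelet-derived growth factor, had the longest cluster, 10 regions over 64.7 kb, in which 1 region of 287 stood above 9 of 45.2 to 127. The cluster of 9 near F3, the gene for tissue factor, lay 55888 bp from its TSS and had 2 regions above 100, at 271 and 376. HSF2BP held 9 regions, of which only 3 exceeded 100. Clusters of similar length differed in summed signal. Those of PDGFC and F3 were 64.7 and 56.8 kb long with sums of 975 and 1002, and that of SUSD1 was 62.6 kb long with 1986.

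**Figure D2:**
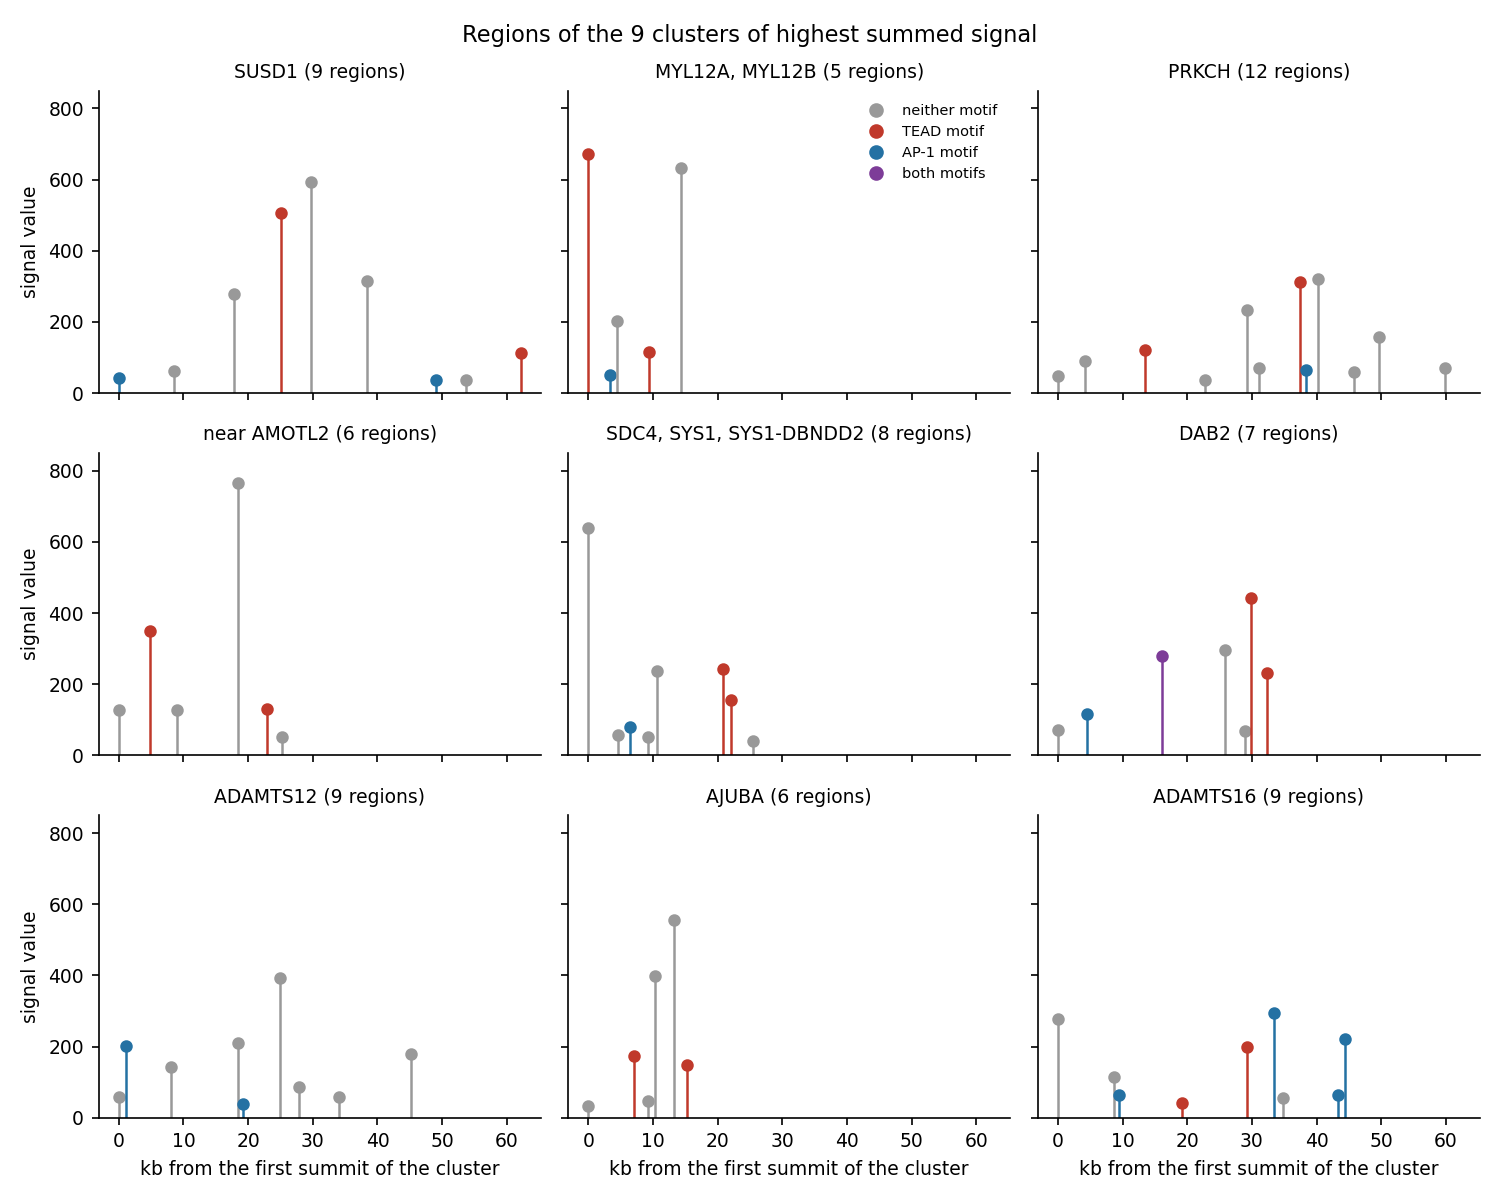
Signal value of each merged region against its distance in kb from the first summit, in the 9 clusters of highest summed signal. Red regions held the TEAD motif, blue the AP-1 motif, purple both and grey neither within 100 bp of the summit. The highest region in the plot is that of 765 near AMOTL2.

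A protein-coding gene overlapped 89 of the 138 clusters, and 54 were held whole within 1 gene. No such count was made for other stretches of like length, so it is not set apart from them. A protein-coding TSS lay inside 56, and 82 held none. The 49 clusters without a protein-coding gene were a median of 76197 bp from the nearest protein-coding TSS (3838 to 854940 bp), and 29 of them overlapped a lncRNA gene. Of the member regions, 49.9% lay in an intron of a protein-coding gene, 28.1% between genes, 17.8% in a lncRNA gene, 3.34% in a UTR or other non-coding exon and 0.770% in a coding exon. Outside clusters these shares were 48.0%, 31.7%, 14.5%, 4.78% and 1.05%.

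Members lay near TSSs as often as other regions within the error of the comparison. A TSS was within 2.5 kb of 26.1% of members (203 of 779, Wilson 95% interval 23.1 to 29.3) and of 25.4% of the 18647 others. The odds ratio was 1.04 (95% interval 0.811 to 1.33), from a logistic model that allows for regions of a chain being alike. Mean GC content was 45.7% in members and 46.2% outside, a difference of -0.48 percentage points (-1.43 to 0.46).

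The TEAD motif was found at 159 of 779 member regions (20.4%, 17.7 to 23.4) and at 4554 of 18647 others (24.4%). The odds ratio was 0.794 (0.663 to 0.949), and the value adjusted over 5 motifs by Benjamini-Hochberg, 0.0572, missed the threshold of 0.05. A two-sided Fisher's exact test that ignores chains gave adjusted p = 0.0522. The ratio was below 1 in every alternative run. It passed the threshold with unmerged peaks (0.826), against isolated regions only (0.775), with signal and GC content as covariates (0.740), and for the 6 bases CATTCC (0.827). It did not pass with joining at up to 5 kb (0.837, 0.501 to 1.40) or 25 kb (0.946, 0.853 to 1.05). Nor did it with windows of 50 bp (0.786) or 250 bp (0.900, 0.757 to 1.07). The highest IDR score alone (0.821, 0.642 to 1.05) and leaving out chromosome 5 (0.840, 0.701 to 1.01) did not pass either. Shares were 24.9%, 23.7%, 24.4% and 22.8% in chains of 1, 2, 3 and 4. Over all 19426 regions the motif was found in 24.3%.

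The other motifs did not pass the test. The AP-1 motif was at 195 of 779 members and at 26.9% of others (odds ratio 0.906, 0.766 to 1.07). RUNX factors often share enhancers with TEAD and AP-1 factors, and their motif TGTGGTT was at 10.7% and 9.83% (1.09, 0.873 to 1.37). The E-box CAGATG, bound by bHLH factors such as TWIST, was at 17.5% and 16.8% (1.05, 0.879 to 1.24). CCTTACA, which has the TEAD letters in reverse order and served as a control, was at 1.67% and 2.05% (0.809, 0.455 to 1.44). Over all regions these motifs were in 26.9%, 9.86%, 16.8% and 2.04%. Neither the TEAD nor the AP-1 motif was found at 57.5% of members (54.0 to 60.9) and 53.5% of others (52.8 to 54.3). Each motif was looked for on either strand up to 100 bp from the summit, and was counted independently of the others.

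**Figure D3:**
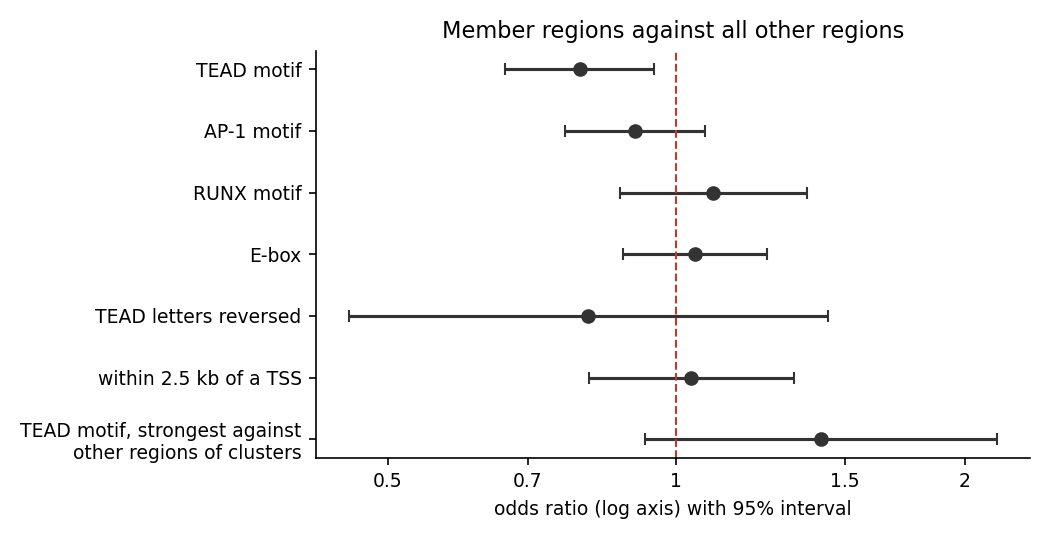
Odds ratios (log axis, with 95% intervals) of member regions against all other regions for 5 motifs and for a TSS within 2.5 kb. The last row compares the strongest region of each cluster with the other regions of clusters. Only the unadjusted interval of the TEAD motif lies wholly on 1 side of 1.

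Seen cluster by cluster, 96 of 138 had the TEAD motif in at least 1 region and 47 in at least 2, while 42 had it in none. The AP-1 motif was in at least 1 region of 110 clusters, both motifs were in 74 and neither was in 6. APBB2 and DUSP14 had the motif in 4 of the 6 regions of their clusters, the highest number. These 2 were picked out after their values were seen.

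Within clusters, the motif was not clearly tied to the strongest region. It was at 35 of the 138 strongest regions (25.4%, 18.8 to 33.2) and at 124 of the 641 others (19.3%, 16.5 to 22.6), with an odds ratio of 1.42 (0.928 to 2.16). The 6 bases CATTCC, an alternative added after the printed windows were seen, were at 54.3% of the strongest regions (46.0 to 62.4) and 42.3% of the others (38.5 to 46.1), with an odds ratio of 1.63 (1.14 to 2.32). Over all members they were at 44.4%, and at 49.1% of other regions. In 53 of the 96 clusters with the full motif in some regions and not in others, mean signal was higher in the regions with the motif (55.2%, 45.3 to 64.8). For the AP-1 motif this was so in 49 of 110 clusters. At least 1 copy of CATTCC was found in 133 of the 138 clusters.

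**Figure D4:**
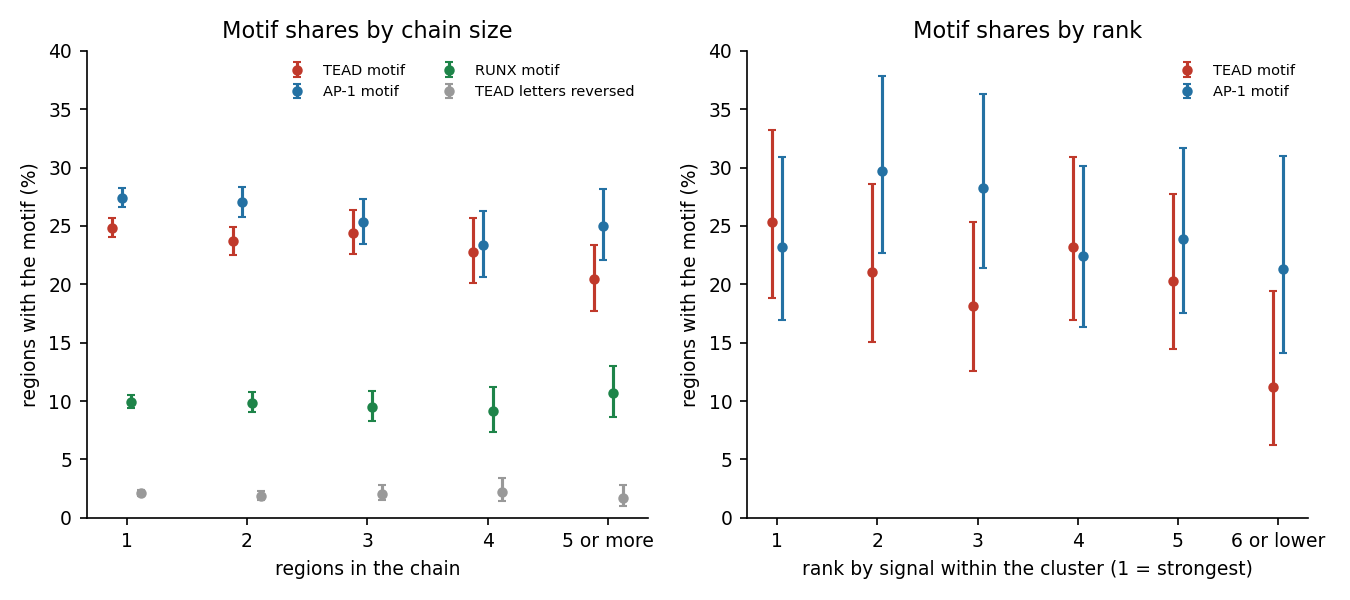
Percent of regions with each motif, with Wilson 95% intervals. Left, by the number of regions in the chain. Right, in clusters, by rank of signal. The share of the TEAD motif was 25.4% at rank 1 and 11.2% at rank 6 or lower, with wide intervals.

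A protein-coding gene was counted as carrying a cluster where its body overlapped the cluster extended by 2.5 kb to either side. This held for 111 of 20007 protein-coding genes (0.555%), and 75 genes (0.375%) had a TSS within 2.5 kb of a cluster. The 111 genes had a median length of 94.1 kb, against 27.5 kb for all genes. The lists below were drawn up for this tissue and factor, and several of them hold long genes. The part of length in these counts was not tested. Wilson intervals of shares cover counting error only.

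Among 30 genes of the Hippo pathway and TEAD cofactors, 2 carried a cluster (6.67%, median length of the list 117 kb), and 24 had at least 1 TEAD4 region. Over all protein-coding genes, 6081 of 20007 (30.4%) had at least 1. FRMD6, an upstream activator of the Hippo kinases, carried 2 clusters 42.6 kb apart. The first had 6 regions with signals of 183, 74.0, 115, 59.5, 129 and 363 and the second 5 regions with signals of 226, 46.2, 270, 101 and 134. VGLL3, a cofactor that competes with YAP for TEAD factors, had 5 regions over its start with signals of 98.3, 73.4, 139, 88.2 and 72.3. The regions of FRMD6 were thus stronger and more uneven than those of VGLL3. YAP1, WWTR1 and the 4 TEAD genes carried no cluster.

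Of 22 known YAP-TEAD target genes, only CRIM1 carried a cluster (4.55%, median length 33.5 kb), although 18 of the 22 had at least 1 region, against 30.4% of all genes. CRIM1, a membrane protein that binds BMPs, had 6 regions over its first part with signals of 40.3, 44.7, 98.3, 439, 204 and 111. CCN1, CCN2 and ANKRD1, the targets most often used as readouts, carried none. A TSS within 50 kb of a cluster was found for 3 of the 22 (13.6%), AMOTL2, CRIM1 and TGFB2, against 178 of all 20007 genes (0.89%). This was not particular to the list. It was so for 4 of 32 TGF-β and SMAD genes (12.5%) and 3 of 30 Hippo genes (10%), with TGFB2 and AMOTL2 counted again. In the other lists the share was 8.16% or less, and 0 in the marker lists. The cluster near TGFB2, a TGF-β ligand, had 7 regions with a summed signal of 762, and its edge lay 42236 bp from the TSS.

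Of 49 genes for collagens and scar matrix, 4 carried a cluster (8.16%, median length 75.6 kb). Besides COL5A2 they included COL4A2, a basement membrane collagen, and LOXL2, which cross-links collagen. COL4A2 had 5 weak regions of 38.3 to 139, and LOXL2 had 7 of 47.5 to 230. COL1A1, COL1A2 and COL3A1, the chains of the main scar collagens, carried no cluster.

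In the actomyosin list 2 of 28 genes carried a cluster (7.14%). TPM1, a tropomyosin, had 5 regions of 31.9 to 229, 4 of them within 2.5 kb of a TSS. Of 32 integrin and focal adhesion genes, the collagen receptor ITGA1 and the adaptor PXN did so (6.25%). ITGA1 had 1 region of 246 and 4 of 40.2 to 119, and PXN had 5 regions, all under 100.

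For TGF-β signalling, 2 of 32 genes carried a cluster (6.25%). They were SMAD6 and SMAD7, the inhibitory SMADs. The 5 regions of SMAD6 had signals of 184, 39.8, 44.9, 249 and 184, and SMAD7 had 1 region of 197 and 4 of 59.2 or less. SMAD7 thus rested on 1 region, while SMAD6 had 3 of similar strength. Of 40 growth factor and receptor genes, 2 did so (5%), PDGFC and ANGPTL4, a secreted inhibitor of lipoprotein lipase with 5 regions of 54.2 to 216.

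Among 16 AP-1 and RUNX genes, FOSL2, an AP-1 subunit, carried the only cluster. It was the weakest of all 138, with a summed signal of 201 and signals of 74.1, 34.3, 39.4, 6.88 and 45.9, and 3 of its 5 regions held the AP-1 motif. The region of 6.88 was 1 of these 3, and its −log10 q-value was only 0.075. A cluster needs 5 regions, so without this region FOSL2 would carry none, and neither would any other gene of the list. Among 33 mesenchymal transcription factors, ETS1 carried the only cluster (3.03%), with signals of 34.8, 85.8, 102, 142 and 337.

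The marker lists of cell types were read the same way, for binding and not for expression, so they cannot check the cell type. None of 10 stellate cell and myofibroblast markers, among them ACTA2 and PDGFRB, carried a cluster, but 6 of the 10 had at least 1 region. None of 10 hepatocyte markers had any region, and of 10 macrophage and endothelial markers 4 had a region and none a cluster. Over all protein-coding genes 30.4% had a region. A count of 0 of 10 allows a share of up to 27.8% by the Wilson interval.

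**Figure D5:**
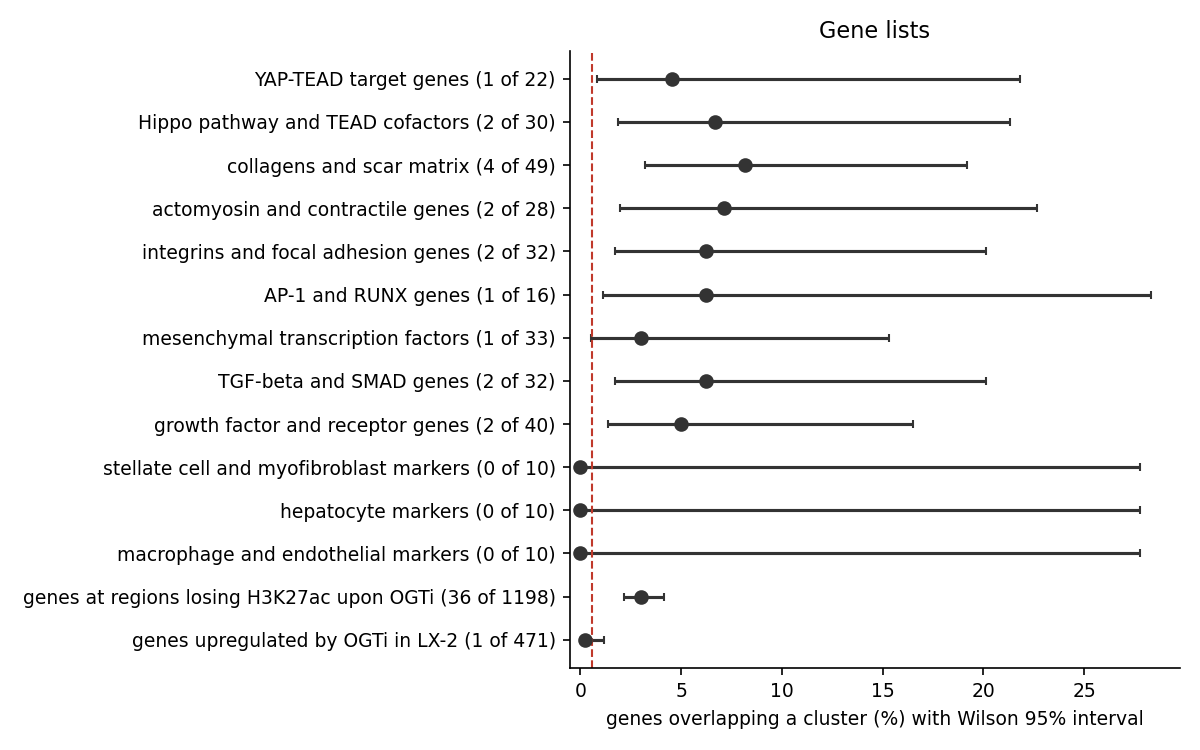
Percent of the genes of each list that overlap a cluster, with Wilson 95% intervals, and in brackets the counts. The dashed line is the share of all protein-coding genes, 0.555%. Among protein-coding genes with at least 1 TEAD4 region it was 1.81%. The lists differ in gene length, and the interval of a list of 10 genes reaches 27.8%.

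The study also measured H3K27ac, a mark of active enhancers and promoters, in LX-2 cells in which OGT, the enzyme that adds O-GlcNAc to proteins, was inhibited (OGTi). Its list of genes at regions that lost the mark was compared with the clusters. Of the 1781 entries only 1292 (72.5%) matched a protein-coding gene, so the counts hold for the 1198 genes matched. A cluster was carried by 36 of them (3.01%, 2.18 to 4.13), and they made up 36 of the 111 cluster genes (32.4%, 24.4 to 41.6), against 5.99% of all protein-coding genes. Among genes with at least 1 TEAD4 region the shares were 36 of 767 in the list (4.69%, 3.41 to 6.43) and 74 of 5314 outside it (1.39%, 1.11 to 1.74). The median length of these genes was 53.9 kb in the list and 68.7 kb outside it. The study's list of genes upregulated by OGTi in this line holds only the top 500 by change in RNA, and 471 matched. Of these 471 genes, 1 carried a cluster (0.212%, 0.0375 to 1.19). Among those with at least 1 TEAD4 region it was 1 of 145 (0.690%, 0.122 to 3.80), an interval that holds the 1.39% above.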

How the data were processed

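TEAD4 ChIP-seq was made from LX-2 cells that received DMSO. The authors mapped reads to hg38 with Chromap and ran the ENCODE IDR pipeline on replicates 1 and 3. In the deposited list, which has no column per sample, the authors' pipeline gave each peak a score (its scaled IDR), a signal value from the peak caller, a −log10 q-value and a summit offset. What the columns mean was inferred from their layout and values, and the peak caller is not given in the sources used here. The depth per sample is unknown.

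Peaks were merged, chained at up to 12.5 kb and grouped as described above. Genes and TSSs came from GENCODE release 44 on hg38, and all 21113 peaks end inside its chromosomes. The TSS distance ran from the merged region to the nearest TSS. Shares of members and other regions were compared by logistic generalized estimating equations with chains as groups and robust errors (a linear model for GC content), two-sided, with Benjamini-Hochberg adjustment over 5 motifs. Regions of a cluster lie on one stretch of chromatin and are not replicates of a condition. The intervals therefore describe spread between chains within 1 list.

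Clusters were named in the text where they were among the 10 with the most regions, the 10 with the highest summed signal, the 5 with the highest mean signal or the 5 longest, or where they overlapped a gene of the lists. Clusters cited as neighbours of these, and those called picked out afterwards, were added. A few items that the rule names are not reported here. Gene symbols of the study's H3K27ac and OGTi lists were matched directly or through RefSeq synonyms. The members and lists were chosen with earlier results of these data known. Alternatives changed the joining distance, the number of regions, the peaks, the motif window and letters, the comparison regions, the covariates and the TSS set. The code was tested on simulated data. Models were fitted with statsmodels 0.14.6 and scipy 1.17.1, sequences were read with pysam 0.24.0, and tables were handled with pandas 2.3.3 and numpy 2.4.6 in Python 3.11.15.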

Additional observations from a re-analysis of the deposited data

How the results depend on the processing

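The rule itself moved the counts most. Against 779 member regions and 111 genes, joining at up to 5 kb gave 104 regions and 17 genes, joining at up to 25 kb gave 2357 and 338, and 10 or more regions gave 22 and 3. Peaks with the highest IDR score alone gave 307 and 46, unmerged peaks gave 1319 regions, and a TSS within 50 kb gave 178 genes. With 10 or more regions only 2 clusters were left, and the models could not be fitted. The odds ratio of the TEAD motif kept its direction and passed the threshold with unmerged peaks (0.826), against isolated regions (0.775), with signal and GC content as covariates (0.740) and for CATTCC (0.827, added after the data were seen). In the other alternatives the TEAD ratio did not pass, and it was nearest to 1 at 25 kb (0.946) and with windows of 250 bp (0.900). The odds ratio of the strongest region kept its direction and passed at 25 kb (1.78), with unmerged peaks (1.91), with windows of 50 bp (1.59) and 250 bp (1.62) and for CATTCC (1.63). The AP-1 ratio passed with unmerged peaks (0.799), and the difference in GC content passed at 25 kb (-0.64) and turned at 5 kb (1.74) without passing. The other ratios did not pass in any alternative run. The farthest from 1 were those of the TSS (1.77) and RUNX (1.54) at 5 kb and of the reversed letters with unmerged peaks (0.662), and several crossed 1. The TSS ratio did so at 25 kb (0.874), with the highest IDR score (0.915), unmerged peaks (0.946), isolated regions (0.993) and protein-coding TSSs (0.847). The E-box ratio did so with the highest IDR score (0.965) and windows of 50 bp (0.918) and 250 bp (0.999). The RUNX ratio did so with unmerged peaks (0.946), and the reversed letters at 25 kb (1.05) and with 250 bp (1.13). The cause was not tested. The other 54 of 87 alternative values kept their direction and side of the threshold, or their count within 1.5 times.

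No paired analysis was possible because replicates 1 and 3 were combined by the authors and no value per sample is at hand. Leaving out single replicates could not be run either. A single list limits each signal to 1 value without error, and absence of a cluster at a gene says only that fewer than 5 regions passed the authors' IDR step within the joining distance.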

Other observations

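Clusters were uneven over chromosomes. Chromosomes 20, 9 and 15 had 7.60%, 7.54% and 7.53% of their merged regions in clusters, against 4.01% over all, and chromosome 5 had the most member regions, 82 in 14 clusters. Chromosomes 16, 22 and X held none among 464, 221 and 407 regions. Median signal outside clusters was 77.7, 72.6, 69.9 and 74.4 on chromosomes 20, 9, 15 and 5, and 74.9, 69.1 and 66.8 on chromosomes 16, 22 and X. Merged regions per Mb were 10.6, 7.28, 7.29 and 8.36 on the first 4 and 5.14, 4.35 and 2.61 on the last 3. Chromosome 17, with 8.44 per Mb, had only 2.42% in clusters, and chromosome 8, with 4.94, had 5.44%. The part of density was not tested.

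Of the clusters, 10 neighbouring pairs lay within 100 kb of each other and 15 within 500 kb. The closest pair, 27.9 kb apart, was near PAPPA, a protease that frees insulin-like growth factors, with 5 and 6 regions and summed signals of 486 and 433. A pair on chromosome 11, 59.0 kb apart, overlapped NEAT1 and MALAT1, neighbouring abundant nuclear lncRNAs, with 6 regions each and summed signals of 507 and 473. Both clusters had no protein-coding gene within their span. Of 12 annexin genes, which encode proteins that bind membranes in the presence of calcium, 3 carried a cluster. Among all protein-coding genes the share was 0.555%. ANXA2 had 5 regions with 1 of 644, ANXA3 had 5 with signals of 90.6, 104, 295, 310 and 63.1, and ANXA1 had 5 of 68.7 to 163. The annexins and these pairs were picked out after their values were seen, and no test was made.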
